A study of Mus musculus with 6 samples.

Results

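The 9 genes described here, *Ly6c2*, *Ccr2*, *Vcan*, *F13a1*, *Fn1*, *Mgst1*, *Thbs1*, *Lrg1* and *Mmp19*, are known as genes of the Ly6C high, or classical, monocyte. They were picked by name from the 55421 genes counted in each library, and all 9 had enough reads to be among the 13849 genes tested. The data are RNA sequencing of monocytes taken from the spleen of 6 C57BL/6 mice, 3 of them IL-4Rα+/+ and 3 IL-4Rα-/-, with 1 library per mouse and no treatment in either group. The IL-4Rα-/- mice lack the receptor chain in the whole body, so every cell type of these animals, and not the monocyte alone, carries the deletion. The monocytes were enriched by negative selection, in which other leukocytes are bound by antibodies and taken out, so both Ly6C high and Ly6C low monocytes were in the preparations. The labels name neither the age nor the sex of the mice, though the methods of the study give an age range in weeks for all its animals. Nothing states that mice of the same number belong together.

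Ly6C high monocytes leave the bone marrow, circulate in blood and are held in a reservoir in the spleen, from which they enter inflamed tissue. They can lose Ly6C and turn into Ly6C low monocytes, which patrol the vessel wall and depend on the transcription factor NR4A1. The IL-4 receptor alpha chain is shared by the receptors for IL-4 and IL-13 and signals through STAT6. The comparison asks whether the genes that mark the Ly6C high state differ in splenic monocytes without this chain.

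None of the 9 genes differed between the genotypes beyond the spread between mice, and that spread was wide. Between the 3 IL-4Rα+/+ mice *Vcan* differed 54.2-fold, *Lrg1* 35.2-fold and *Thbs1* 10.7-fold, and between the 3 IL-4Rα-/- mice *Lrg1* differed 198-fold, *Vcan* 12.9-fold and *Thbs1* 12.2-fold. In most of the genes the same 2 libraries, IL-4Rα-/- replicate 2 and IL-4Rα+/+ replicate 3, were high and IL-4Rα+/+ replicate 1 was low. Genes of the Ly6C low monocyte had the opposite order.

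The start regions of 4 genes are shown so that a pair of near copies, and a pair of genes with unequal spread, can be compared. *Ly6c2* and *Ly6c1* are neighbouring copies with very different read numbers in these cells. *Ccr2* and *Vcan* had the same lowest and the same highest library, with a small and a large amplitude, while the middle of their order differed. Each sequence is a RefSeq window on GRCm38.p6 from 250 bases before to 50 bases after the start site, 5′ to 3′ on the strand of the gene. Capitals mark the letters GAGGAA, the core of sites bound by the monocyte factor PU.1, and TTNNGNAA, a relaxed form of the C/EBP site, on either strand. The windows lie at chr15:75111922-75112221 on the minus strand for *Ly6c2*, chr15:75048788-75049087 on the minus strand for *Ly6c1*, chr9:124101933-124102232 on the plus strand for *Ccr2* and chr13:89742463-89742762 on the minus strand for *Vcan*.
Ly6c2: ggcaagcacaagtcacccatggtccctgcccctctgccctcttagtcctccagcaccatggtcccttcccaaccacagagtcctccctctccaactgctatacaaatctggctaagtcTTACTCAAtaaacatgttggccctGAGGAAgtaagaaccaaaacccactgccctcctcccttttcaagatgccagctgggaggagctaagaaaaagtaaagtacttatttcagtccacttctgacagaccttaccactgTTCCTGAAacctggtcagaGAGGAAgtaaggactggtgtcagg
Ly6c1: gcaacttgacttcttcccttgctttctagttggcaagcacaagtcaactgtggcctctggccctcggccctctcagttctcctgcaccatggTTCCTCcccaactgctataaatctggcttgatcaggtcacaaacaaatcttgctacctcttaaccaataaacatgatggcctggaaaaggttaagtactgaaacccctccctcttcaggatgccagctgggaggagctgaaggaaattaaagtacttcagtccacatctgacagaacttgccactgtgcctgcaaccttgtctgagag
Ccr2: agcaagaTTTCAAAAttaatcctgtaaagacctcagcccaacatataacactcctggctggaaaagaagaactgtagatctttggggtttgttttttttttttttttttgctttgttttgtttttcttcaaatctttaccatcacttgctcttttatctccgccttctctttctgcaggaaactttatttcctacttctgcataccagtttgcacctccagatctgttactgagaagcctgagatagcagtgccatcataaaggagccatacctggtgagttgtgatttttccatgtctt
Vcan: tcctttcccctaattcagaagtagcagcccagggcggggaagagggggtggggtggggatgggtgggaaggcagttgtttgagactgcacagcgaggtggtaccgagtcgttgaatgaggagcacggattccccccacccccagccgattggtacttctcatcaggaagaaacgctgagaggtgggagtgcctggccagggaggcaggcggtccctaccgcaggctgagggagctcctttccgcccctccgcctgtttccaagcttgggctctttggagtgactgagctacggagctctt
The printed *Ly6c2* window held 2 matches to each motif and the printed *Ly6c1* window 1 match to GAGGAA. The *Ccr2* window held 1 match to TTNNGNAA and the *Vcan* window none of either (0 matches). *Ly6c2* and *Ly6c1* each have a second RefSeq window, not printed. That of *Ly6c2* also held 2 matches to each motif, and that of *Ly6c1* held 2 to GAGGAA and 0 to TTNNGNAA. The printed *Ly6c1* window ends inside 1 of these, so its lower number depends on the window chosen. Of all 32851 RefSeq windows of this length, 28.3% held GAGGAA and 40.7% held TTNNGNAA, so a single match is common. The letters CACCC of KLF sites were found once in the *Ly6c2* window and 4 times in the *Vcan* window, against 57.5% of all windows with at least 1 match. Neither TGANTCA, the AP-1 site, nor the composite site for ETS and IRF factors matched in any window of the 6 of 9 genes that the table holds. In the overlap of 266 aligned bases, the *Ly6c2* and *Ly6c1* windows were 78.2% identical. RefSeq windows were at hand for *Ly6c2*, *Ccr2*, *Vcan*, *F13a1*, *Mgst1* and *Lrg1*, and those of *Fn1*, *Thbs1* and *Mmp19* were not used here.

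Between 26807281 and 29033297 reads fell on genes in a library, and levels are given as CPM, the counts of a gene per 1000000 counts of the library after TMM scaling, which evens out differences in library composition. *Il4ra*, the targeted gene, had 137, 128 and 177 CPM in IL-4Rα+/+ and 27.9, 79.4 and 31.8 CPM in IL-4Rα-/- replicates 1, 2 and 3, so each knockout library was below each control, with replicate 2 the highest of the knockouts. Genes shared by all monocytes were abundant in every library: *Csf1r*, the receptor for the growth factor M-CSF, had 2227 to 3095 CPM and *Lyz2*, lysozyme, had 8847 to 17025 CPM. Some features set single libraries apart, chosen after their values were seen. *Xist*, which is transcribed from the inactive X chromosome, had 15739 counts in IL-4Rα+/+ replicate 1 and 13512 in IL-4Rα-/- replicate 3 but at most 103 in the other libraries. *Ddx3y*, a gene of the Y chromosome, had 0 and 3 counts in these 2 libraries and 3239 to 4112 in the others. By these genes the 2 libraries came from female mice and the others from male mice. The part of sex in the levels of the 9 genes was not tested. The pancreatic enzyme gene *Prss2* had 855 counts in IL-4Rα-/- replicate 2 and at most 84 elsewhere.

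*Ly6c2* (chr15:75108158-75111970 on the minus strand of GRCm38) encodes the GPI-anchored surface protein that the Ly6C antibody detects. It had 242, 380 and 427 CPM in IL-4Rα+/+ replicates 1, 2 and 3 and 339, 592 and 503 CPM in IL-4Rα-/- replicates 1, 2 and 3. The genotypes overlapped, since IL-4Rα-/- replicate 1 was below 2 of the 3 controls. The mean was 350 ± 96.1 CPM (SD, n = 3) in IL-4Rα+/+ and 478 ± 128 CPM (SD, n = 3) in IL-4Rα-/- monocytes. Its log2 fold change was 0.45 ± 0.27 (SE), with a 95% interval from -0.19 to 1.09 and an adjusted p of 0.656 from edgeR's quasi-likelihood test. The near copy *Ly6c1* had 3 to 22 counts in a library, against 6898 to 16896 for *Ly6c2*. Of the distinct stretches of 75 bases in *Ly6c2* transcripts, the read length used, 9.46% also occur in *Ly6c1* transcripts, and reads from these would not have been counted, as only uniquely placed reads were.

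*Ccr2* (chr9:124101950-124113557, plus strand) encodes the receptor for the chemokine CCL2 and is needed for monocytes to leave the bone marrow. Its level was 380, 1045 and 1668 CPM in IL-4Rα+/+ and 826, 2008 and 979 CPM in IL-4Rα-/- replicates 1, 2 and 3. All 3 knockout values lay above IL-4Rα+/+ replicate 1, but 2 of them were below IL-4Rα+/+ replicate 2. The log2 fold change was 0.30 ± 0.56 (SE, 95% interval from -1.04 to 1.64), and edgeR gave an adjusted p of 0.863.

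**Figure D1:**
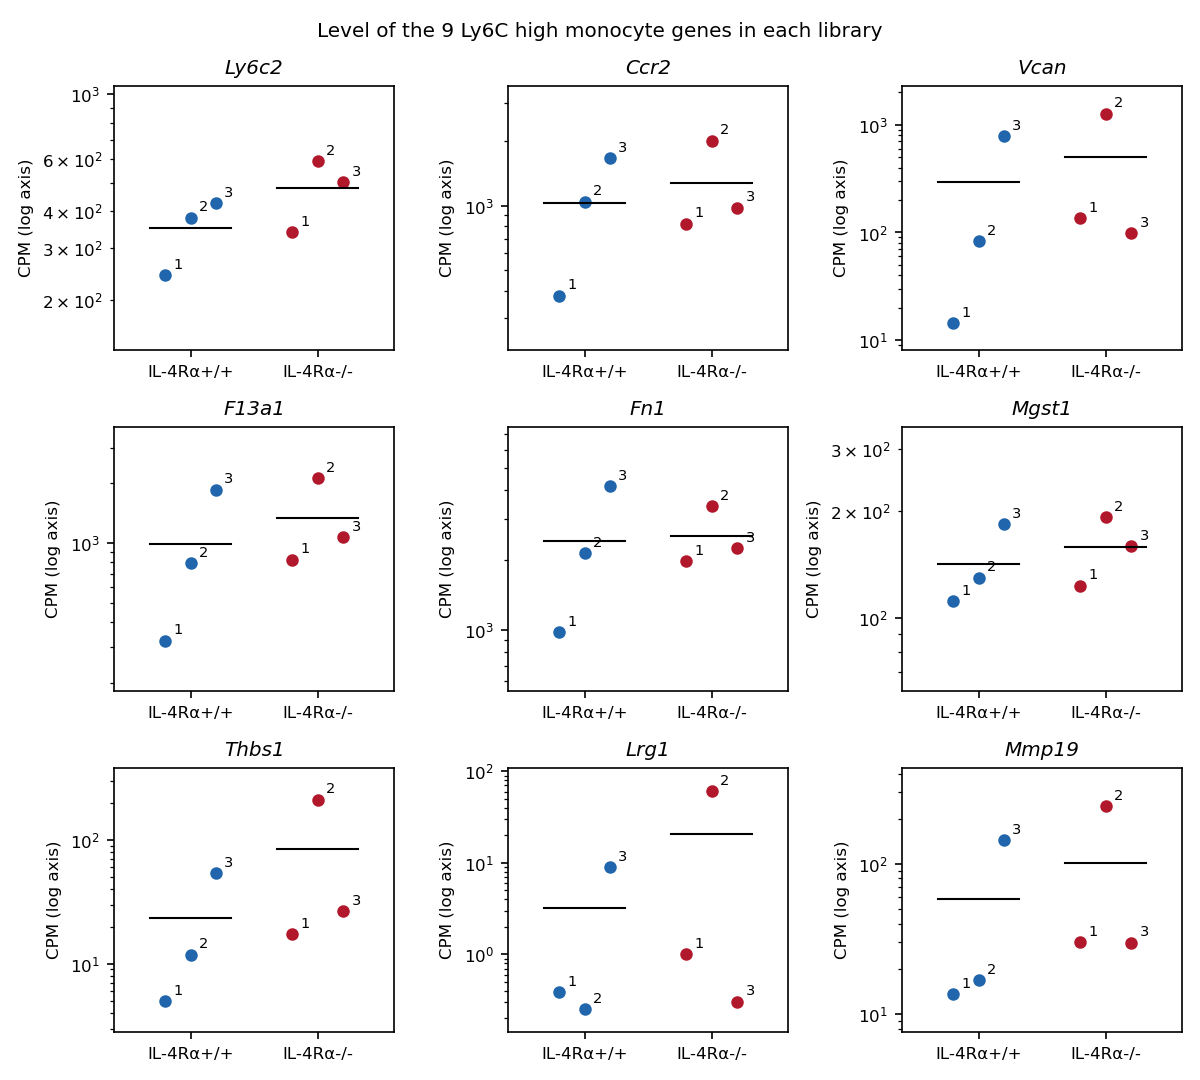
Level of each of the 9 genes in CPM on a log axis, with 1 point per library, its replicate number beside it and a bar at the mean of the 3 mice. Blue is IL-4Rα+/+ and red is IL-4Rα-/-, and in every panel the points of the genotypes overlap, with IL-4Rα+/+ replicate 3 and IL-4Rα-/- replicate 2 the highest of their genotype in all 9 genes.

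A second group, *Fn1*, *Vcan*, *F13a1*, *Mmp19* and *Thbs1*, encodes proteins of the extracellular matrix or enzymes that act on it or in clotting. *Fn1* (chr1:71585520-71653200, minus strand), which encodes fibronectin, a ligand of integrins, had 974, 2139 and 4178 CPM in IL-4Rα+/+ and 1973, 3425 and 2249 CPM in IL-4Rα-/- libraries. The lowest and the highest library were thus both IL-4Rα+/+, and the IL-4Rα-/- libraries lay within their range. *Fn1* had a log2 fold change of 0.07 ± 0.50 (SE), with an interval from -1.12 to 1.26.

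*Vcan* (chr13:89655312-89742509, minus strand) encodes versican, a large chondroitin sulfate proteoglycan, and was the most uneven after *Lrg1*. It had 14.5, 83.0 and 787 CPM in IL-4Rα+/+ and 136, 1267 and 98.0 CPM in IL-4Rα-/- libraries. Most of the reads of each genotype came from 1 mouse. Across genotypes the log2 fold change was 0.76 ± 1.49 (SE), and its interval reached from -2.81 to 4.33.

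*F13a1* (chr13:36867178-37050244, minus strand), the gene of the A subunit of clotting factor XIII, which cross-links fibrin, had 325, 791 and 1853 CPM in IL-4Rα+/+ and 826, 2123 and 1074 CPM in IL-4Rα-/- libraries. The log2 fold change was 0.44 ± 0.64 (SE). *Mmp19* (chr10:128790910-128800824, plus strand), the gene of a secreted matrix metalloproteinase, had 13.6, 16.8 and 144 CPM against 30.2, 242 and 29.8 CPM, a log2 fold change of 0.79 ± 1.19 (SE). In both genes IL-4Rα+/+ replicate 3 lay above 2 of the 3 knockouts.

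*Thbs1* (chr2:118111876-118127133, plus strand) encodes thrombospondin-1, a secreted matrix protein that binds CD47 and CD36 and can activate latent TGF-β. It had 5.02, 11.9 and 53.6 CPM in IL-4Rα+/+ and 17.3, 212 and 26.8 CPM in IL-4Rα-/- libraries. The log2 fold change of 1.86 ± 1.19 (SE, adjusted p = 0.664 from edgeR) rested on IL-4Rα-/- replicate 2, and without that mouse it was -0.09. *Lrg1* (chr17:56119678-56122001, minus strand) encodes a secreted leucine-rich glycoprotein that modulates TGF-β signalling. It was low in 4 of the libraries, with 11, 7 and 236 counts in IL-4Rα+/+ and 28, 1724 and 9 counts in IL-4Rα-/- replicates 1, 2 and 3. With all mice its log2 fold change was 2.70 ± 2.02 (SE), and it was -2.29 without IL-4Rα-/- replicate 2. *Mgst1* (chr6:138140316-138156755, plus strand), a microsomal glutathione transferase that detoxifies reactive compounds, was the most even of the 9. It had 111, 130 and 184 CPM against 123, 193 and 159 CPM, with a log2 fold change of 0.16 ± 0.23 (SE, interval from -0.39 to 0.71).

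**Figure D2:**
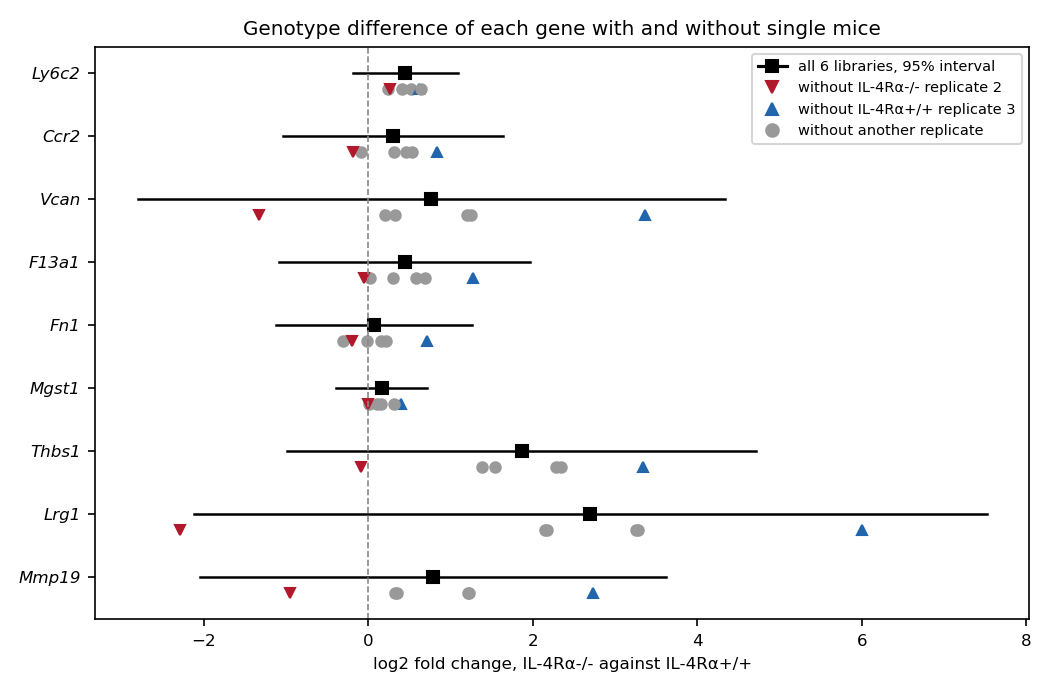
The log2 fold change of IL-4Rα-/- against IL-4Rα+/+ for each gene from all 6 libraries (black square) with its 95% interval (line), and below it the value when 1 mouse is left out. All 9 intervals include 0, and without IL-4Rα-/- replicate 2 (red triangles) only *Ly6c2* stays above 0, while without IL-4Rα+/+ replicate 3 (blue triangles) all 9 genes do.

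Taken over the list, 0 of the 9 genes had an adjusted p under 0.15, the threshold of the study, and 0 of all genes tested did (0%). The adjusted p-values of the 9 from edgeR ranged from 0.656 (*Ly6c2*) to 0.971 (*Fn1*). At an unadjusted p under 0.05 there were again 0 of 9, against 8.09% of all genes tested (3.72% higher and 4.37% lower in IL-4Rα-/-). In 0 of the 9 genes did the genotypes not overlap, against 15.5% of all genes. DESeq2, the tool of the study, called 0 of the 9 at the same threshold and 80 of all genes (0.571%), with a lowest adjusted p among the 9 of 0.715. It gave no p for *Lrg1* and *Mmp19*, which its screen for outlying counts set aside. The intervals are wide: that of *Ly6c2* allows a level between 0.875 and 2.13 times that of IL-4Rα+/+ mice, that of *Ccr2* between 0.488 and 3.11 times and that of *Vcan* between 0.143 and 20.2 times. All 9 fold changes were above 0, against 51.5% of all genes, with a median log2 fold change of 0.45 against 0.01 for all genes. Without IL-4Rα-/- replicate 2 the median was -0.19 with 1 of 9 above 0, and without IL-4Rα+/+ replicate 3 it was 1.27 with 9 of 9 above 0, so 1 mouse sets the direction. Without IL-4Rα+/+ replicate 3 the genotypes did not overlap in *Vcan*, *F13a1*, *Thbs1* and *Mmp19*, where 36.9% of all genes then did not.

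The spread over the 6 libraries placed most of the genes among the most variable. The SD of log2 CPM was at the 99.9th percentile of all genes tested for *Lrg1*, the 99.8th for *Vcan*, the 99.6th for *Thbs1* and the 99.4th for *Mmp19*. It was lower for *F13a1* (96.7), *Ccr2* (94.95), *Fn1* (92.4), *Ly6c2* (79.2) and *Mgst1* (67.5). Of the variance of log2 CPM, between 4.04% (*Fn1*) and 30.1% (*Ly6c2*) lay between the genotypes, with a median of 8.60% for the 9 genes and 17.8% for all genes. Most of the variation of these genes was therefore between mice of one genotype.

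**Figure D3:**
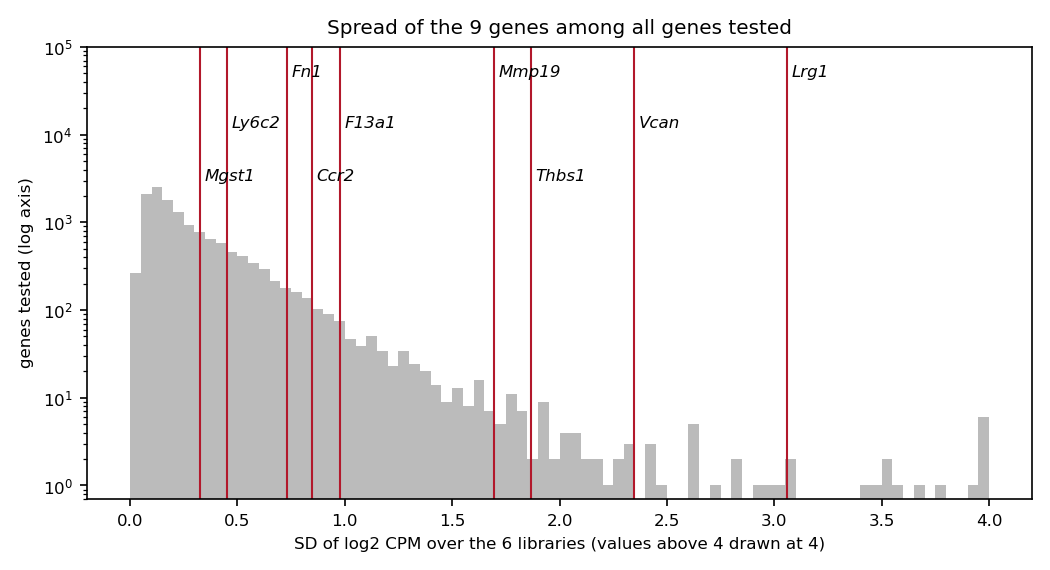
Number of tested genes (log axis) by the SD of their log2 CPM over the 6 libraries, with a red line for each of the 9 genes. *Mgst1* and *Ly6c2* lie in the upper part of the bulk, and *Mmp19*, *Thbs1*, *Vcan* and *Lrg1* in the sparse right tail.

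The lowest and the highest library were largely shared by the 9 genes. IL-4Rα+/+ replicate 1 was the lowest of the 6 in 8 genes, the exception being *Lrg1*, and it was the lowest in 21.3% of all genes tested. IL-4Rα-/- replicate 2 was the highest in 8 genes, the exception being *Fn1*, against 24.8% of all genes. Both held in 7 of the 9 genes and in 10.1% of all genes. Within IL-4Rα+/+ mice replicate 2 lay between the other two in 8 of 9 genes. The middle of the order was less alike, with IL-4Rα-/- replicate 3 above replicate 1 in 6 of 9 genes. Compared on mean-centred log2 CPM, some of the genes were close neighbours of each other among all 13848 other genes. *Ccr2* was the gene nearest but one to *F13a1*, at a Euclidean distance of 0.50 where the median gene was 2.24 away. *Fn1* ranked 6 and *F13a1* ranked 8 from *Ccr2*, and *Thbs1* ranked 5 and *Mmp19* ranked 6 from *Vcan*. Other pairs were far apart: *Vcan* ranked 13802 and *Lrg1* ranked 13827 from *Ly6c2*, and *Vcan* ranked 13456 from *Ccr2*. The distance depends on amplitude as well as on the order of the libraries.

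The genes nearest to each member outside the list were of several kinds. Nearest to *Vcan* were *Chil3*, a chitinase-like protein of classical monocytes, and *Mmp8*, a collagenase, at distances of 1.70 and 1.74. *Chil3* had 121, 391 and 1827 CPM in IL-4Rα+/+ and 487, 2433 and 291 CPM in IL-4Rα-/- libraries. Nearest to *Thbs1* were the chemokine receptor gene *Ccr1* (0.78), *Mmp8* (1.02) and the interleukin-1 decoy receptor gene *Il1r2* (1.03). *Ly6c2* was nearest to *Peli2* (0.17), *S1pr2* (0.27) and *Lilra6* (0.28), and *Mgst1* to *Stx3* (0.11), *Bysl* and *Atf3* (0.14 each). Nearest to *Mmp19* were *Gpld1*, *Lamc1* and *Dmkn*, nearest to *Fn1* were *Atrnl1*, *Nim1k* and *Gm15853*, and nearest to *F13a1* besides *Ccr2* were *Etl4* and *Igkv19-93*. *Ccr2* was nearest to *Atrnl1*, *Apol7d* and *Igkv19-93*, of which *Apol7d* had only 3 to 28 counts and lies across the *Fn1* gene on the other strand. Nearest to *Lrg1* were *Igfbp6*, *Saa3* and *Lcn2*, at distances of 2.06 to 2.82.

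A list of 20 other genes known from Ly6C high monocytes had part of the same order. In 12 of them IL-4Rα+/+ replicate 1 was the lowest and IL-4Rα-/- replicate 2 the highest library, beside the 10.1% of all genes. *Hp*, which encodes haptoglobin, had 283, 406 and 898 CPM in IL-4Rα+/+ and 400, 1173 and 476 CPM in IL-4Rα-/- libraries. Not all of the list followed: *Gpx1*, glutathione peroxidase, had 1183 to 1451 CPM with IL-4Rα+/+ replicate 1 highest. None of the 20 passed the adjusted threshold (0 of 20). An unadjusted p under 0.05 was found in 1, against 8.09% of all genes, *Tmem176a*, with a log2 fold change of -0.21 ± 0.07 (SE). The genotypes did not overlap in 3 of the 20, against 15.5% of all genes.

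The 18 genes of the Ly6C low monocyte ran the other way. In 15 of them IL-4Rα+/+ replicate 1 was the highest and IL-4Rα-/- replicate 2 the lowest library, a pattern of 10.3% of all genes tested, of which 21.6% had the first library highest and 23.4% had the second lowest. *Ace*, which encodes angiotensin-converting enzyme, had 2774, 2123 and 1088 CPM in IL-4Rα+/+ and 1745, 710 and 1604 CPM in IL-4Rα-/- libraries. *Nr4a1*, the factor these cells depend on, had 1439, 1209 and 828 CPM against 1024, 539 and 1116 CPM. Of the 18 genes, 0 were called with edgeR or DESeq2. An unadjusted p under 0.05 was found in 0 of 18, against 8.09% of all genes. Genotypes did not overlap in 0 of 18, against 15.5% of all genes. All 18 fold changes were below 0, with a median log2 fold change of -0.37, where 51.5% of all genes were above 0.

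The levels of the lists can also be added up. In sum, the 9 Ly6C high genes had 2067, 4597 and 9305 CPM in IL-4Rα+/+ and 4273, 10122 and 5119 CPM in IL-4Rα-/- replicates 1, 2 and 3. The 18 Ly6C low genes summed to 14533, 11308 and 6768 CPM and to 10127, 5072 and 9340 CPM in the same order. The ratio of the sums was thus 0.142, 0.406 and 1.37 in IL-4Rα+/+ and 0.422, 2.00 and 0.548 in IL-4Rα-/- libraries, and the genotypes overlapped. *Fn1* held a large part of the first sum, and without it the ratio was 0.0752, 0.217 and 0.757 in IL-4Rα+/+ and 0.227, 1.32 and 0.307 in IL-4Rα-/- libraries, in the same order and again with overlap. The 20 genes shared by all monocytes varied far less, from 24522 to 33358 CPM in sum, with IL-4Rα+/+ replicate 1 lowest and IL-4Rα-/- replicate 2 highest. *Lyz2* alone held 8847 CPM of the lowest and 17025 CPM of the highest sum. Of the 20 genes, 6 were lowest in IL-4Rα+/+ replicate 1 and 9 highest in IL-4Rα-/- replicate 2, against 21.3% and 24.8% of all genes. The order of this sum is thus not that of the list as a whole. In RNA of pooled cells, fewer Ly6C high monocytes and less of these RNAs per cell cannot be told apart. By flow cytometry the study counted more Ly6C low monocytes in IL-4Rα-/- spleens and found no significant difference in Ly6C high monocytes. Those are absolute cell numbers, and whether they came from the mice sequenced here is not stated. When the mean level of the Ly6C low genes was added to edgeR's fit, a choice made after seeing the data, 5 of the 9 fold changes were above 0. In that fit *Thbs1* had a log2 fold change of 0.65 ± 0.11 (SE), with an adjusted p of 0.339 from edgeR, and the other 8 had adjusted p-values of 0.566 to 0.978.

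**Figure D4:**
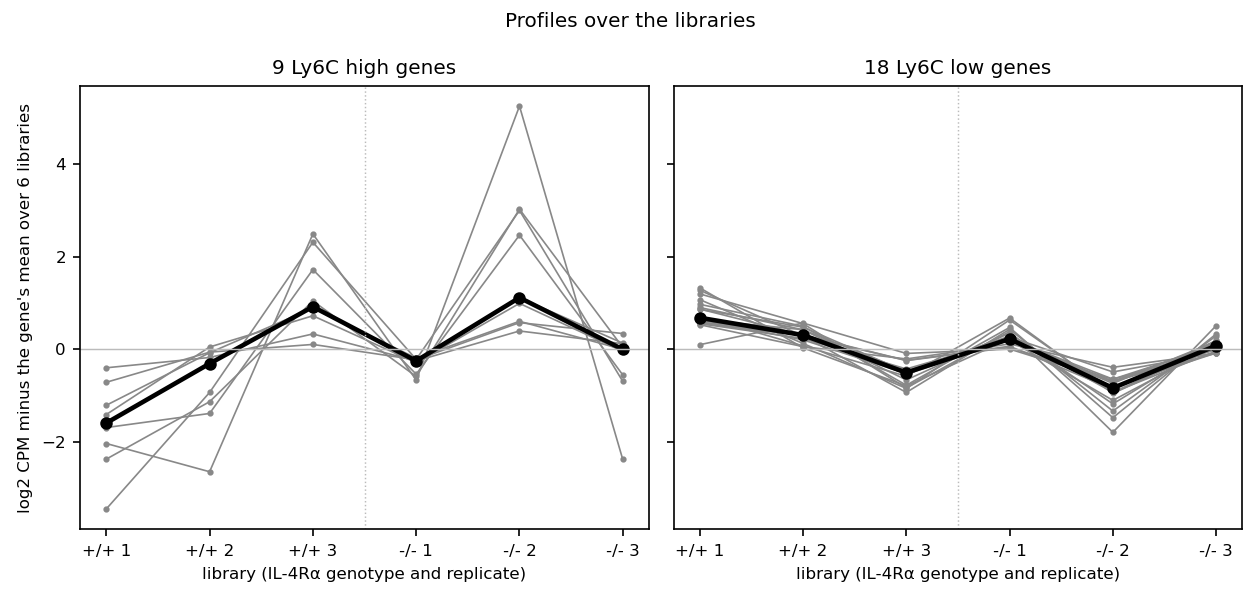
Log2 CPM of each gene minus its mean over the 6 libraries, for the 9 Ly6C high genes (left) and the 18 Ly6C low genes (right). Grey lines join the values of one gene and the black line is the median of the list. IL-4Rα+/+ replicate 3 and IL-4Rα-/- replicate 2 are high on the left and low on the right, and IL-4Rα+/+ replicate 1 is low on the left and high on the right.

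**Figure D5:**
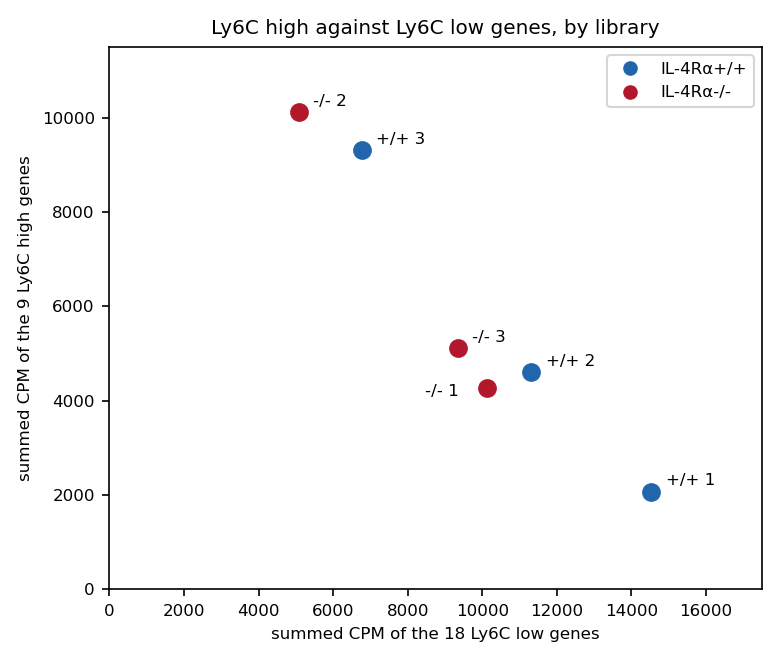
Summed CPM of the 9 Ly6C high genes against summed CPM of the 18 Ly6C low genes, with 1 point per library. The libraries run from IL-4Rα+/+ replicate 1 (14533 against 2067 CPM) to IL-4Rα-/- replicate 2 (5072 against 10122 CPM), with both genotypes along the way.

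Levels of different genes were set side by side per kilobase of annotated exon. In IL-4Rα+/+ monocytes *Fn1* had 208 ± 139 CPM per kb (SD, n = 3), *Ccr2* 153 ± 95.3, *F13a1* 147 ± 116, *Ly6c2* 128 ± 35.1 and *Mgst1* 70.4 ± 18.9. *Vcan* followed with 20.4 ± 29.6, then *Mmp19* with 16.5 ± 21.1, *Thbs1* with 3.87 ± 4.33 and *Lrg1* with 2.26 ± 3.52 CPM per kb. Between neighbours in this order the ranges of the 3 mice overlapped, other than between *Mgst1* and *Vcan*, whose nearest values were 55.2 and 54.4 CPM per kb. In IL-4Rα-/- monocytes the order was *Fn1* (218 ± 66.0), *F13a1* (199 ± 102), *Ccr2* (188 ± 95.1), *Ly6c2* (174 ± 46.7), *Mgst1* (78.7 ± 17.3), *Vcan* (34.6 ± 45.9), *Mmp19* (28.5 ± 34.6), *Lrg1* (14.6 ± 24.5) and *Thbs1* (14.1 ± 18.1). There the ranges of *Ly6c2* and *Mgst1* did not overlap, and those of the other neighbours did.

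Several of the genes are also made by cells other than monocytes, so markers of those cells were read in the same libraries. *F13a1* and *Thbs1* are also known from platelets. *Pf4* and *Ppbp*, the leading platelet genes, had 9 to 41 and 2 to 16 counts, and *Gp1bb* was at 0 counts in all 6 libraries. The 13 platelet and megakaryocyte markers summed to 35.8 to 73.9 CPM in IL-4Rα+/+ and 37.2 to 74.0 CPM in IL-4Rα-/- libraries. *Vwf* and *Clec1b* held most of this sum. Within each genotype it was lowest in IL-4Rα+/+ replicate 3 and IL-4Rα-/- replicate 2, where *F13a1* and *Thbs1* were highest. Not all markers had the order of the sum. *Ppbp* had 16 counts in IL-4Rα-/- replicate 2 and 15 in replicate 3. *Itga2b* had 2.71, 1.66 and 2.98 CPM in IL-4Rα+/+ and 5.21, 2.31 and 4.26 CPM in IL-4Rα-/- libraries. The part of platelets in the levels of *F13a1* and *Thbs1* was not tested. *Fn1*, *Vcan*, *Thbs1* and *Mmp19* are also known from fibroblasts, and the 7 stromal markers summed to 5.95 to 12.1 CPM, with *Lum* at 0 counts throughout and *Col1a1* at 11 to 38 counts. The 7 endothelial markers, of interest for *Lrg1*, summed to 4.59 to 7.69 CPM.

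Neutrophils also express *Lrg1*, and some neutrophil genes, but not all, were high in the same libraries. The 16 neutrophil markers summed to 500 to 975.1 CPM in IL-4Rα+/+ and 680 to 1381 CPM in IL-4Rα-/- libraries, with the highest sum in IL-4Rα-/- replicate 2. *Csf3r*, *Cd177* and *Mmp8* had the most counts of the list and held most of this sum. *Mmp8* was also among the genes nearest to *Vcan* and *Thbs1*, so the sum need not follow the number of neutrophils. *Lcn2*, a granule protein, had 5.02, 1.37 and 20.2 CPM in IL-4Rα+/+ and 10.3, 85.0 and 3.72 CPM in IL-4Rα-/- libraries, and *S100a8* had 9.66, 4.45 and 18.04 CPM against 34.2, 91.3 and 14.7 CPM. Both were highest in IL-4Rα+/+ replicate 3 and IL-4Rα-/- replicate 2 within their genotype. *Cd177* was too, with 115, 181 and 239 CPM against 143, 191 and 185 CPM, though in IL-4Rα-/- by little. *Retnlg* did not follow, with 2.14, 4.02 and 1.32 CPM against 1.32, 1.58 and 3.11 CPM. In *Camp* and *Cxcr2* IL-4Rα+/+ replicate 3 was not the highest control, with 3.16, 0.796 and 3.02 CPM and 1.69, 1.70 and 1.43 CPM. *Ly6g*, the gene of the surface marker of mature neutrophils, had 0 to 9 counts. Of the 15 markers tested, 5 had an unadjusted p under 0.05, *S100a8*, *S100a9*, *Camp* and *Cxcr2* among them, all higher in IL-4Rα-/-, where 3.72% of all genes were. Of them 0 passed the adjusted threshold with edgeR, and DESeq2 called 1. The part of these cells in the level of *Lrg1* was not tested.

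The sums of 3 other lists of cell type markers did not overlap between the genotypes and were higher in IL-4Rα-/-. Of 11 red pulp macrophage markers 7 had an unadjusted p under 0.05, all higher, where 3.72% of all genes were, led by the complement genes *C1qa*, *C1qb* and *C1qc*, and their sum was 3262 to 3820 CPM in IL-4Rα+/+ and 4357 to 7004 CPM in IL-4Rα-/- libraries, highest in replicate 1. The sums of the erythroid markers were 61.0 to 131 CPM against 176 to 424 CPM, and those of the basophil and eosinophil markers 77.5 to 91.1 CPM against 133 to 211 CPM. Unadjusted p-values under 0.05, all higher in IL-4Rα-/-, were found in 8 of 9 erythroid and 7 of 9 basophil and eosinophil markers tested. None of these markers passed the adjusted threshold with edgeR (0 genes), and DESeq2 called 0 of the red pulp macrophage, 3 of the erythroid and 2 of the basophil and eosinophil markers. Their part in the levels of the 9 genes was not tested. The sums of the T and NK cell markers (49.0 to 130 against 46.4 to 116 CPM), B and plasma cell markers (126 to 195 against 191 to 243 CPM) and dendritic cell markers (171 to 248 against 166 to 207 CPM) overlapped between the genotypes. Immediate early genes, which rise when cells are handled, summed to 1276 to 3113 CPM in IL-4Rα+/+ and 1946 to 2973 CPM in IL-4Rα-/- libraries. They were highest in IL-4Rα+/+ replicate 3 and IL-4Rα-/- replicate 2, the libraries where the Ly6C high genes were also high, and their part was not tested. *Fos* had 109, 64.7 and 520 CPM against 200, 488 and 252 CPM.

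Ligands, receptors and inhibitors of the 9 proteins were looked at as a list of 25 genes, of which 17 were tested. Their sum was lower in IL-4Rα-/- without overlap, at 7464, 7704 and 7194 CPM in IL-4Rα+/+ and 6393, 6005 and 6247 CPM in IL-4Rα-/- libraries, and *Lrp1*, *Itga4* and *Cd44* had the most counts of it. The CCR2 ligand gene *Ccl2* had 34, 42 and 124 counts in IL-4Rα+/+ and 54, 261 and 73 counts in IL-4Rα-/- libraries, and *Ccl7* had at most 3 counts. No gene of the list passed the adjusted threshold with edgeR (0 of 17), and 3 had an unadjusted p under 0.05, against 8.09% of all genes. *Itga4*, the α4 chain of a fibronectin receptor, had 1212, 1469 and 1070 CPM in IL-4Rα+/+ and 771, 692 and 845 CPM in IL-4Rα-/- libraries, without overlap. Its log2 fold change was -0.70 ± 0.14 (SE, adjusted p = 0.618 from edgeR), and DESeq2 gave it an adjusted p of 0.0139. *Lrp1*, an endocytic receptor that takes up thrombospondin-1, had 1867, 2112 and 2250 CPM against 1625, 1709 and 1487 CPM, also without overlap and with a log2 fold change of -0.37 ± 0.10 (SE). *Sdc4*, a syndecan that binds fibronectin, was low, with 8.68 to 12.3 CPM against 13.4 to 14.4 CPM and a log2 fold change of 0.44 ± 0.16 (SE). The enzymes that cut versican were barely seen: *Adamts1*, *Adamts4* and *Adamts5* had at most 6 counts and *Adamts9* at most 29, and the metalloproteinase inhibitor *Timp1* had at most 5.

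Of the 9 genes, *F13a1*, *Fn1*, *Thbs1* and *Mmp19* share exon bases with an annotated gene on the other strand, and as the strand used in counting is not given in the sources used here, their counts are less certain. *Ly6c2*, *Ccr2*, *Mgst1* and *Lrg1* overlap no other gene, and *Vcan* overlaps others only outside shared exons. A trend of counts with exon length differed a little between libraries. Fitted at the length of *Vcan* (14462 bp of exon) against *Lrg1* (1408 bp), it was 0.05, 0.17 and 0.09 on the log2 scale in IL-4Rα+/+ and -0.10, -0.17 and -0.03 in IL-4Rα-/- replicates 1, 2 and 3. With this trend removed, the median log2 fold change of the 9 genes was 0.46 and 0 of 9 were called.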

How the data were processed

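Per the labels and the methods of the study, poly(A) RNA from spleen monocytes was made into directional libraries for 3 mice of each genotype and read as single ends of 75 bases. The authors aligned reads to GRCm38 with STAR 2.6.1a, counted them per gene and deposited raw counts, 1 file per library. Whether the counted strand was set to the kit is not given in the sources used here. The submitters' processing notes also name DESeq2 1.22.2. A library held 34312041 to 37007178 reads with those not counted on a gene, which were left out of library sizes.

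Genes passing edgeR's filterByExpr at a minimum count of 10 were scaled by TMM and tested with edgeR 4.0.16 in R 4.3.3 (quasi-likelihood, genotype as only term). P-values were adjusted by Benjamini-Hochberg over all tested genes, at the threshold of 0.15 that the study used. DESeq2 1.42.0, other scalings, no filter, a threshold of 0.05, a length correction, a replicate block and leaving out each mouse were alternatives. The Ly6C low level and *Xist* as covariates were added after seeing the data. The test script was tested on simulated data. All p-values measure the spread between these mice only.

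The 9 genes and all lists were chosen with earlier results of these data known. Named besides them were *Il4ra*, the paralog *Ly6c1*, the 3 genes nearest to each member, list genes with an unadjusted p under 0.05 (at most 4 a list) and the leading genes by counts. *Xist*, *Ddx3y*, *Prss2*, *Hp*, *Ccl2*, *Retnlg* and the single markers given by counts were named outside this rule, after their values were seen. Exon lengths, overlaps and shared stretches came from a GRCm38 annotation of another release than that of the authors, in which 55154 of 55421 gene identifiers matched. Promoter windows came from RefSeq. Some genes that the rule names are not reported here.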

Additional observations from a re-analysis of the deposited data

How the results depend on the processing

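With 3 mice per genotype and SDs this wide, differences of the size given by the intervals could not be detected. No member was called (0 of 9) under any alternative run. DESeq2 called 80 of all genes where edgeR called 0. Over all tested genes, deviations from the genotype mean had correlations of 0.18, -0.27 and -0.30 between mice of the same replicate number. With 3 mice per genotype, these values cannot show whether such mice were related or handled together. With the number as a replicate block, 1 member had an unadjusted p under 0.05, *Ly6c2*, with a log2 fold change of 0.45 and an adjusted p of 0.812 from edgeR, where 5.52% of all genes had an unadjusted p under 0.05. The median log2 fold change of the 9 genes was 0.69 with the block, and 0.38 to 0.47 under the other scalings, with DESeq2, without the filter and with the length trend removed.

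Leaving out 1 mouse moved the median from -0.19 (without IL-4Rα-/- replicate 2) to 1.27 (without IL-4Rα+/+ replicate 3). The number of members with an unadjusted p under 0.05 ranged from 0 to 2, with *Thbs1* and *Mmp19* without IL-4Rα+/+ replicate 3 and *Ly6c2* without IL-4Rα-/- replicate 1, where 12.1% and 4.50% of all genes had one. The number of members without overlap ranged from 0 to 4. The 4 were found without IL-4Rα+/+ replicate 3, where 36.9% of all genes did not overlap. Without IL-4Rα-/- replicate 1 it was *Ly6c2* alone, where 22.3% of all genes did not overlap. Log2 fold changes ranged from -0.19 to 0.84 for *Ccr2*, -1.33 to 3.36 for *Vcan*, -0.059 to 1.27 for *F13a1*, -0.31 to 0.71 for *Fn1*, -0.0047 to 0.40 for *Mgst1*, -0.092 to 3.34 for *Thbs1*, -2.29 to 6.01 for *Lrg1* and -0.96 to 2.73 for *Mmp19*. *Ly6c2* kept its sign, from 0.24 to 0.64.

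With the Ly6C low level as covariate, chosen after seeing the data, 1 member (*Thbs1*) had an unadjusted p under 0.05, as did 11.7% of all genes, and the log2 fold changes turned to -0.071 for *Ccr2*, -0.14 for *Fn1*, -0.0096 for *Mgst1* and -0.11 for *Mmp19*. With the *Xist* level as covariate the median was 0.59. The cause of these changes was not tested.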
